A study of Cricetulus griseus with 2 samples.

Results

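Gadd45b (gene ID ENSCGRG00015002557) and Dusp6 (ENSCGRG00015007237) are both genes of the MAP kinase pathways, and in CHO cells, a line derived from hamster ovary, they differed in opposite directions between a library with and one without tigecycline. In the control library Gadd45b stood at 6.33 TPM and Dusp6 at 29.4 TPM. With tigecycline Gadd45b stood at 223 TPM and Dusp6 at 3.71 TPM. The more abundant gene of the pair was therefore Dusp6 in the control and Gadd45b with tigecycline. These are 2 of the 30211 genes and assembled loci in the deposited table, found by their gene IDs. They were chosen by the same values that are described here: among 348 genes whose symbol is known and whose mean TPM reaches 1, Gadd45b had the highest change and Dusp6 the lowest. Their changes are for this reason given as a description, with no test.

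Tigecycline is an antibiotic of the glycylcycline class that blocks bacterial ribosomes. The control library came from untreated CHO cells (0 mg/ml) and the other library from cells kept in 0.2 mg/ml tigecycline for 48 h. RNA of 1 library per condition was sequenced, so no value below has a replicate error, and the difference between the libraries cannot be told apart from the spread between cultures or library preparations. The study sequenced these cells to look for genes behind the altered coagulation seen with the drug. TPM, a length-corrected share of the transcripts, divides the reads of a gene by its length and scales each library to a sum of 1000000. TPM values can be compared between genes, but the number of reads behind them is unknown. They are also relative values of a bulk sample, in which a smaller share of cells expressing a gene and less of its RNA per cell cannot be told apart.

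Vim, the vimentin gene of mesenchymal-type cells, was abundant in both libraries, at 2235 TPM untreated and 966 TPM treated. Of 4 genes that mark other cell types (Itga2b of megakaryocytes, Lcp1 of leukocytes, Myh11 of smooth muscle, Mbp of oligodendrocytes), 0 were listed at 0 in either library, and their summed level was 38.0 TPM untreated and 18.6 TPM treated. The most abundant of them was Mbp, at 25.9 TPM and 12.2 TPM. Itga2b stood at 4.56 and 2.27 TPM and Lcp1 at 7.29 and 3.20 TPM, while Myh11 was the one that was higher with tigecycline, at 0.25 and 0.96 TPM. Their part in the results was not tested. The symbols of all 5 markers were known because the genes belong to the part of the annotation that lists genes called changed.

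MAP kinase signals pass through tiers of kinases, in which an upstream kinase activates a MAP kinase kinase and this in turn activates ERK, JNK or p38. ERK mainly answers growth factors, and JNK and p38 mainly answer stress and inflammatory cytokines. Gadd45b is a small stress-inducible protein that binds the upstream kinase MAP3K4 and so promotes p38 and JNK signaling. It can also bind MKK7 and restrain JNK, and it is a known target of NF-kappaB. Dusp6 is a cytoplasmic phosphatase that removes phosphate from ERK. Its transcription is induced by ERK signaling itself, which makes it a feedback inhibitor, and its mRNA is commonly read as a marker of ERK output. RNA levels do not measure the activity of any of these kinases, which was not measured here.

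Gadd45b was 35.2-fold higher with tigecycline than in the control, a gain of 217 TPM. On the log2(TPM + 1) scale, on which the added 1 makes changes of low genes smaller, its change was 4.93. Its place in the library moved from the lower part to near the top. In the control 37.7% of the genes above 0 TPM were below Gadd45b, and with tigecycline 95.1% were. In order of level it was number 10238 in the control and number 798 with tigecycline. By the gain in TPM, which favours abundant genes, it was number 95 in the table.

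Dusp6 was 7.91-fold lower with tigecycline, and 12.6% of its control level was left. The difference was -25.6 TPM and the log2(TPM + 1) change was -2.69. In the control 65.8% of the genes above 0 TPM were below Dusp6, against 31.8% with tigecycline. It went from number 5610 to number 11207 in order of level. By the loss in TPM it was number 985. In the RefSeq annotation of another hamster assembly (CriGri-PICRH-1.0), the span of Dusp6 lies within that of 1 other protein-coding gene, LOC100754361, while 0 genes overlap Gadd45b. How reads of overlapping genes were divided in the deposited table, and whether strand was used, is not given in the sources used here.

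The change of Gadd45b was 1.84 times as large as that of Dusp6 on the log2(TPM + 1) scale, and the changes lay 7.62 apart. Dusp6 was 4.64-fold above Gadd45b in the control. With tigecycline Gadd45b was 60.1-fold above Dusp6. These ratios compare levels within a library and do not depend on how the libraries were scaled against each other. The libraries themselves were close in scale, with a median log2 ratio of 0.07 over rows of at least 10 TPM on average.

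**Figure D1:**
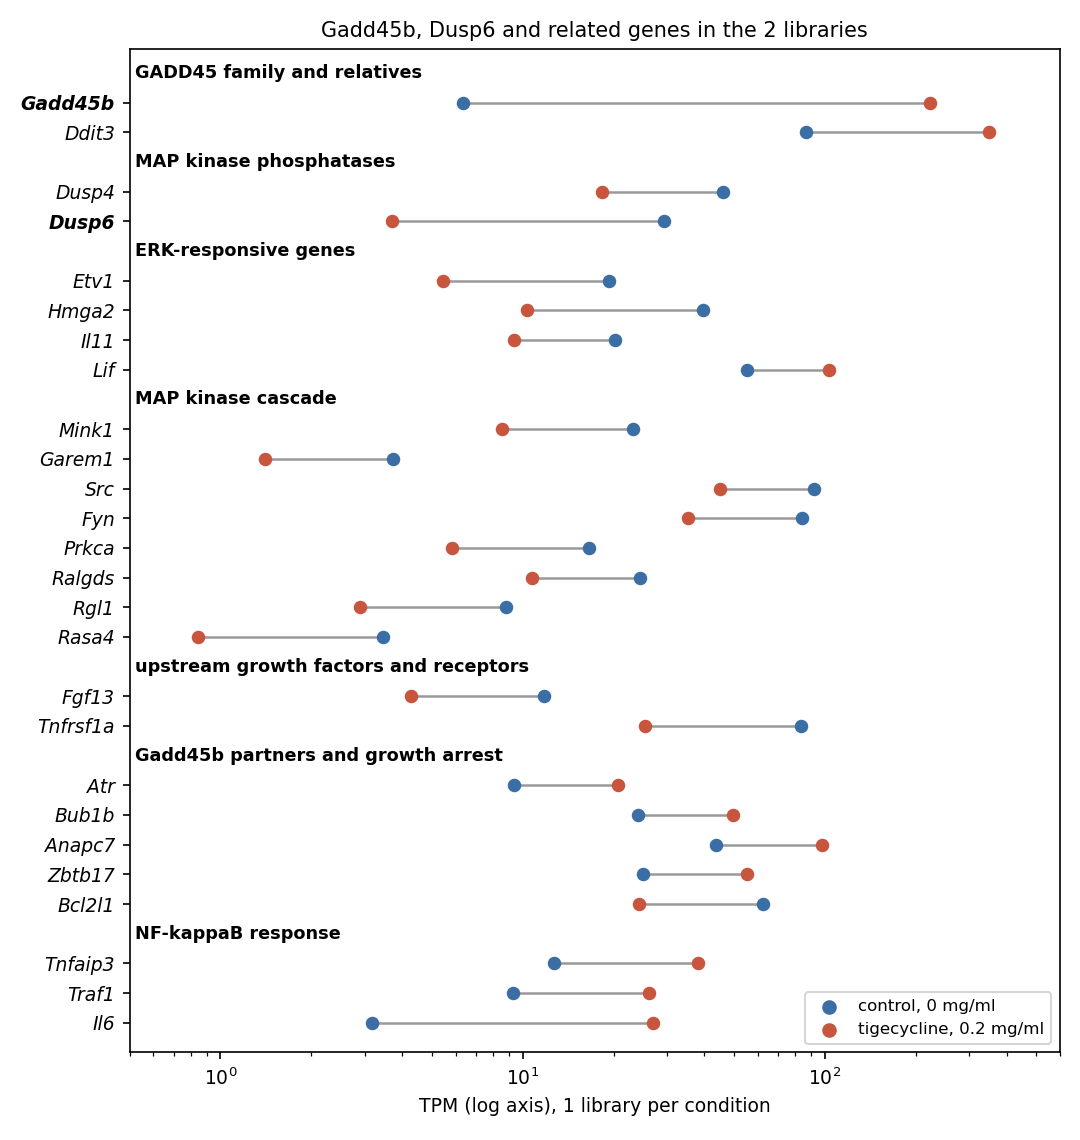
TPM on a log axis for Gadd45b, Dusp6 and 24 related genes with a known symbol, with 1 point for the control library (blue) and 1 for the tigecycline library (red) and no error bars, since there was 1 library per condition. The longest line belongs to Gadd45b, from 6.33 to 223 TPM, and Dusp6 spans 29.4 to 3.71 TPM in the other direction.

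Most rows of the table with a mean TPM of at least 1 differed little between the libraries. Among 13200 rows with a mean TPM of at least 1, the median log2(TPM + 1) change was 0.04, and the central 95% lay between -1.49 and 1.43. A change of 1 or more in the upward direction was found in 806 rows (6.11%), and a change of -1 or less in 922 rows (6.98%). Gadd45b is 1 of the former and Dusp6 1 of the latter. Since both were chosen on this contrast, nothing is read from that.

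**Figure D2:**
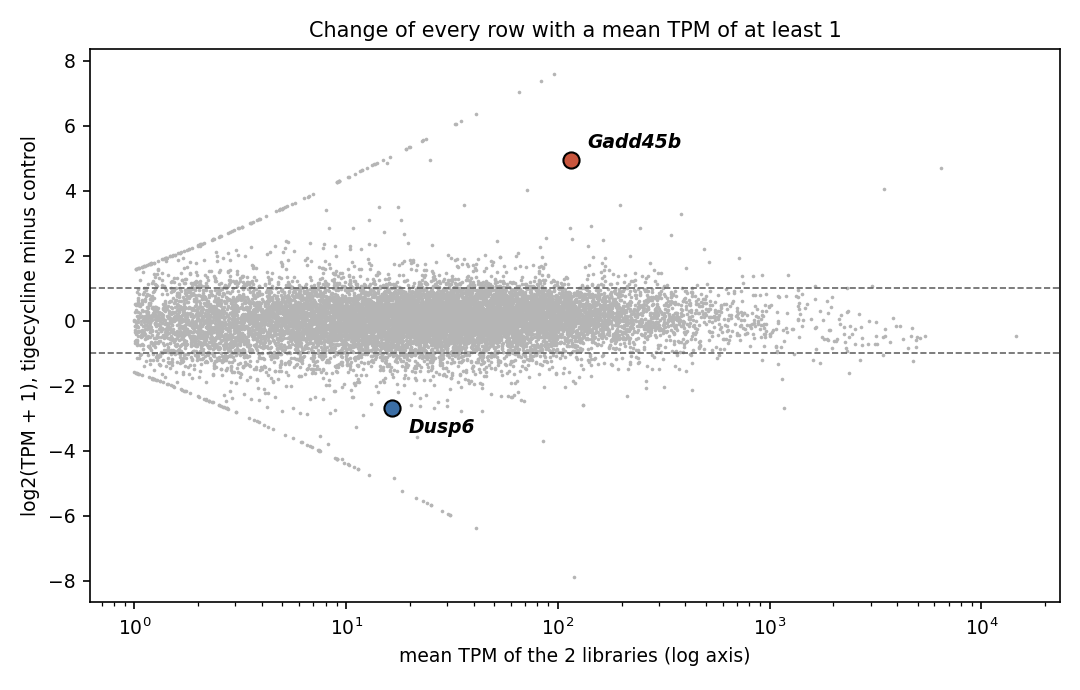
Change between the libraries on the log2(TPM + 1) scale (vertical) against mean TPM on a log axis (horizontal), with 1 grey point for each of 13200 rows with a mean TPM of at least 1, and dashed lines at -1 and 1. Gadd45b (4.93) lies far above and Dusp6 (-2.69) well below the bulk of the rows, while the straight diagonal edges are rows listed at 0 in a library.

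Each gene was then placed among rows of similar level, taken as a mean TPM between 0.5 and 2 times its own. For Gadd45b, with a mean of 115 TPM, this window ran from 57.3 to 229 TPM and held 2668 rows. Their median change was 0.12, the middle 50% lay between -0.26 and 0.47 and the central 95% between -1.21 and 1.19. Gadd45b ranked number 4 from the top. The 3 rows ahead of it, ENSCGRG00015028067, ENSCGRG00015006051 and ENSCGRG00015011114, were all listed at 0 in the control and at 131 to 191 TPM with tigecycline. An exact 0 beside more than 100 TPM can be a failed estimate, so, with the values already in view, the rank was also taken among the 2664 rows above 0 in both libraries. There Gadd45b was number 1, followed by ENSCGRG00015021788, which stood at 7.40 TPM untreated and 136 TPM treated (log2 change 4.03).

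For Dusp6, with a mean of 16.5 TPM, the window ran from 8.27 to 33.1 TPM and held 4461 rows. Their median change was 0.02, the middle 50% lay between -0.40 and 0.39 and the central 95% between -1.46 and 1.29. Dusp6 ranked number 31 from the bottom. Of the 30 rows beyond it, 22 were listed at 0 in a library and 13 were assembled loci, which carry names of the kind a transcript assembler gives (MSTRG) in place of an Ensembl ID. Among the 4410 rows above 0 in both libraries Dusp6 was number 9. The next row inward was MSTRG.6608, from 45.4 to 6.25 TPM (-2.68), and then Pycard, from 52.1 to 7.59 TPM (-2.63), which codes for the adaptor of inflammasomes. The next row outward was ENSCGRG00015025789, from 16.2 to 1.58 TPM (-2.73). The values around Dusp6 are thus close together, whereas Gadd45b stood 0.91 above the next row.

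**Figure D3:**
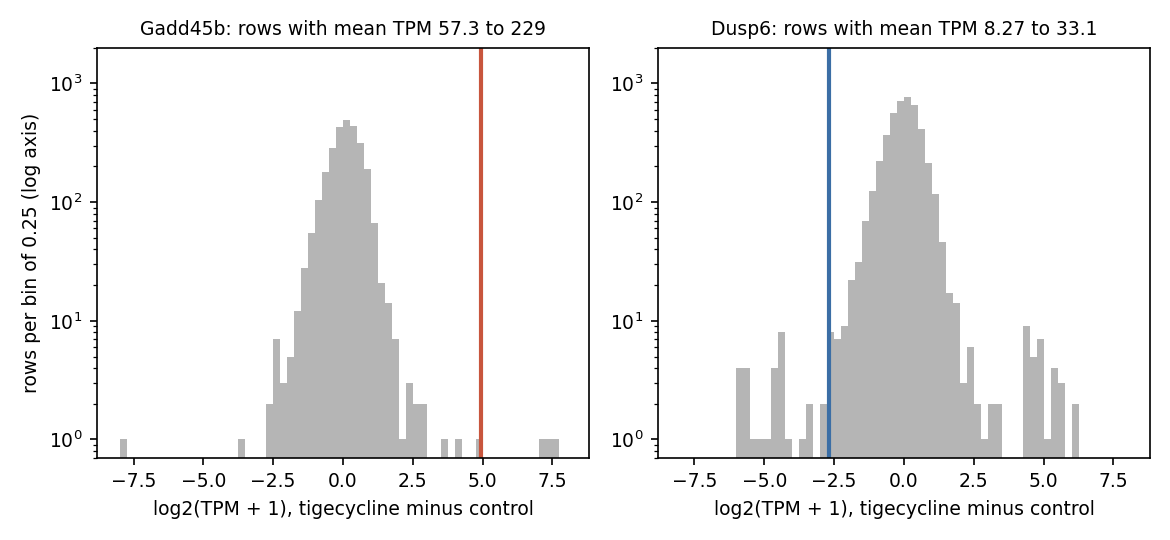
Number of rows (log axis) by change on the log2(TPM + 1) scale in bins of 0.25, for the 2668 rows with a mean TPM of 57.3 to 229 (left, Gadd45b) and the 4461 rows of 8.27 to 33.1 (right, Dusp6), each gene marked by a vertical line. The red line lies beyond nearly all rows and the blue line at the lower edge of the main body, with 3 rows beyond Gadd45b and 30 beyond Dusp6, 22 of the latter listed at 0 in a library.

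Over all 13200 rows with a mean TPM of at least 1, Gadd45b was number 18 from the top and 16 of the 17 rows ahead were listed at 0 in the control. The exception was ENSCGRG00015005943, at 0.61 TPM untreated and 49.0 TPM treated (log2 change 4.96). Dusp6 was number 66 from the bottom, with 47 of the 65 rows beyond it listed at 0 with tigecycline. Among the 12984 rows above 0 in both libraries Gadd45b was number 2 and Dusp6 number 19. If the plain ratio of TPM is ranked in place of the log2(TPM + 1) change, which lets low rows move up, they were number 5 and number 44.

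The genes with a symbol nearest in change to either gene were then listed. Since both genes were chosen as the extremes of these genes, how near the others lie is set in part by that choice. Likeness was taken as the absolute difference in log2(TPM + 1) change over the 2 libraries. The nearest to Gadd45b was Inpp5k, a phosphoinositide phosphatase gene, listed at 0 in the control and at 10.1 TPM with tigecycline, which lay 1.46 away. It was followed by Slc9a7, a sodium/proton exchanger gene, listed at 0 and at 7.12 TPM, and by Il6, the interleukin 6 gene, at 3.18 and 26.9 TPM. The nearest to Dusp6 was Pycard, at a distance of 0.06. Then came Mmp19, a matrix metalloproteinase gene, from 101 to 18.9 TPM (-2.35), and Plac8, from 354 to 70.1 TPM (-2.32).

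The related genes below could be looked up only where a symbol or a term gave their ID, which is the case only for genes that the study called changed on these libraries. Of the 376 genes with a known symbol, 230 (61.2%) were lower and 146 (38.8%) higher with tigecycline. By 1 or more on the log2(TPM + 1) scale, 177 (47.1%) were lower and 112 (29.8%) higher, far above the 6.98% and 6.11% of background rows. Background rows are those with a mean TPM of at least 1, a level not required of the 376. Counts in the groups that follow describe these genes only, and their direction is not independent evidence.

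Of 10 MAP kinase phosphatase symbols looked for, 2 had an ID, Dusp6 and Dusp4. The GO term MAP kinase phosphatase activity is held with 3 IDs, which are the members that the study called changed and not the whole family. These 3 were lower with tigecycline by a log2 change past -1, as were 6.98% of background rows and 47.1% of known symbols. Dusp4, a nuclear phosphatase of ERK, stood at 46.0 TPM untreated and 18.3 TPM treated (log2 change -1.28). The third, ENSCGRG00015018040, which has no symbol here, stood at 23.8 and 6.03 TPM (-1.82). In the control Dusp4 was the highest of the 3 and Dusp6 lay between the others. With tigecycline Dusp4 was again the highest and Dusp6 the lowest, and of the 3 Dusp6 had the largest change.

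Of genes known to respond to ERK signaling, 4 of 26 looked for had an ID. Etv1, an ETS transcription factor gene, stood at 19.4 TPM untreated and 5.44 TPM treated (log2 change -1.66). Hmga2, a chromatin architectural protein gene, stood at 39.5 and 10.3 TPM (-1.84), and Il11, a cytokine gene, at 20.3 and 9.40 TPM (-1.03). Lif, also a cytokine gene, was the one that was higher, at 55.3 and 103 TPM (0.89), short of a change of 1. Thus 3 of these 4 genes were lower, as were 61.2% of all known symbols. These 3 were lower past a log2 change of -1, as were 6.98% of background rows and 47.1% of known symbols. Only genes called changed have an ID, and nothing is read from the count. The missing 22 cannot be taken as unchanged.

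Genes of the kinase cascade and its regulators with an ID numbered 8 of 33, and all 8 had a lower level with tigecycline, 7 of them past a log2 change of -1. No MAP kinase, MAP kinase kinase, Raf or Ras gene looked for had an ID. Among background rows 6.98% and among known symbols 47.1% were lower to that extent, and these 8 have an ID only because the study called them changed. Src, the founding non-receptor tyrosine kinase gene, stood at 92.3 TPM untreated and 45.0 TPM treated (-1.02). Its relative Fyn stood at 84.1 and 35.3 TPM (-1.23). Prkca, which codes for protein kinase C alpha, an activator of the Raf to ERK route, stood at 16.6 and 5.85 TPM (-1.36). The Ral exchange factor genes Ralgds and Rgl1, effectors of Ras, stood at 24.4 and 10.7 TPM (-1.12) and at 8.79 and 2.89 TPM (-1.33). Rasa4, whose product switches Ras off, was low in both libraries, at 3.45 and 0.84 TPM (-1.27). Mink1, an upstream kinase gene of the JNK and p38 routes, stood at 23.3 and 8.57 TPM (-1.34). The exception to the change of -1 was Garem1, an adaptor of growth factor receptors to ERK, at 3.73 and 1.40 TPM (-0.98). Fgf13, which the KEGG MAPK signaling pathway lists, codes for an intracellular fibroblast growth factor homologous factor that is not a ligand of the receptors, and stood at 11.8 and 4.26 TPM (-1.28). Upstream of the cascade, Tnfrsf1a, a receptor of TNF that feeds JNK and p38, stood at 83.8 and 25.4 TPM (-1.68). None of these changes was as large as that of Dusp6, which had to be so, since Dusp6 was chosen as the lowest of the known symbols.

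In the growth arrest and DNA damage inducible group 2 of 5 genes looked for had an ID, Gadd45b and Ddit3, both because the study called them changed. Both were higher by more than a log2 change of 1, as were 6.11% of background rows and 29.8% of known symbols. Ddit3 codes for the stress transcription factor CHOP, also known as GADD153, and stood at 87.0 TPM untreated and 350 TPM treated. It was 4.03-fold higher. Ddit3 was the more abundant of the pair in both libraries, by 13.8-fold over Gadd45b in the control and by 1.57-fold with tigecycline. Gadd45a and Gadd45g had no known ID and were not analysed here.

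Of 5 genes looked for from the NF-kappaB response, to which Gadd45b is also known to belong, 3 had an ID and all 3 were higher by more than a log2 change of 1. The 5 are a short choice from that response, so nothing about it is read from them. That extent was reached by 6.11% of background rows and 29.8% of known symbols, and only genes called changed have an ID. Tnfaip3, which codes for the feedback inhibitor A20, stood at 12.7 TPM untreated and 38.1 TPM treated (1.52). Traf1, a TNF receptor adaptor gene, stood at 9.29 and 26.2 TPM (1.40). Il6 stood at 3.18 and 26.9 TPM (2.74), the change nearest in size to that of Gadd45b among them.

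Of 11 genes looked for in growth arrest, or in the cell cycle and p53 pathways that list Gadd45b, 5 had an ID. Cdkn1a, Pcna, Cdk1, Ccnb1, Trp53 and Mdm2 had none and were not seen. The 5 are the other members with a symbol of the Cell cycle and p53 lists given below, so they are counted again there. Of them 4 were higher by more than a log2 change of 1, against 6.11% of background rows and 29.8% of known symbols. These IDs too come only from genes called changed. Atr, a kinase gene of the DNA damage checkpoint, stood at 9.37 TPM untreated and 20.7 TPM treated (1.07). Bub1b, of the spindle checkpoint, stood at 24.1 and 49.9 TPM (1.02), and Anapc7, a subunit of the anaphase-promoting complex, at 43.7 and 97.9 TPM (1.14). Zbtb17, which codes for the transcription factor MIZ1, stood at 24.99 and 55.2 TPM (1.11). The lower one was Bcl2l1, which codes for the survival protein BCL-XL, at 62.6 and 24.4 TPM (-1.33). All of these changes are small beside the 4.93 of Gadd45b, which was chosen as the highest of the known symbols, so nothing is read from that.

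Gadd45b and Dusp6 were then set in 9 terms of the pathway and GO annotation that hold them. Each term is given here by the genes that the study called changed on these libraries, so the counts describe these libraries and are not independent evidence. The background for them is a median change of 0.04, with 6.11% of rows higher and 6.98% lower by 1 or more. Among known symbols, which like the lists hold only genes called changed, 29.8% were higher and 47.1% lower to that extent, so nothing about a term is read from its counts. Together the lists held 77 gene IDs, 30 of them with a symbol, and they share members. Of the 77, 67 (87.0%) lay past 1 in some direction. Gadd45b and Dusp6 were chosen for their extreme changes. Their places at or near the ends of the lists are set in part by that choice, and nothing is read from them.

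The KEGG pathway MAPK signaling names both genes, and 21 of its changed genes are held here, the rest of the list being not used. Beside Gadd45b and Dusp6, 14 of the other 19 were lower by 1 or more, 4 were higher and 1 lay between, with a median of -1.28. By mean TPM, 18 of these 19 reach 1. Gadd45b had the highest change in the list, ahead of Ddit3. Dusp6 had the second lowest, behind ENSCGRG00015010669, which has no symbol here and stood at 12.2 TPM untreated and 0.80 TPM treated (-2.88). The calcium channel subunit genes Cacna2d2 and Cacna1d stood at 5.01 and 1.76 TPM (-1.12) and at 0.01 and 0.22 TPM (0.27). Prkaca stood at 135 and 315 TPM (1.22), though the annotation gives that row a description that belongs to another gene.

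The GO term negative regulation of MAPK cascade names Dusp6 and not Gadd45b. Of the other 16 genes, 7 were lower by 1 or more, 2 were higher and 7 lay between, with a median of -0.93. Among the lower were Sh2b3, an adaptor that restrains cytokine receptors, from 55.3 to 18.7 TPM (-1.52), and Pdcd4, a translation inhibitor, from 35.1 to 15.4 TPM (-1.14). P2rx7, an ATP-gated channel gene, stood at 1.11 and 2.64 TPM (0.79). Dusp6 had the lowest change of this list, and the next was ENSCGRG00015008703, at 41.8 and 9.89 TPM (-1.97).

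The GO term regulation of JNK cascade names Gadd45b and not Dusp6. Of the other 14 genes, 9 were lower by 1 or more, 2 were higher and 3 lay between, with a median of -1.14. Pycard was the lowest of them. Magi3, a scaffold protein gene, stood at 11.1 and 4.47 TPM (-1.14), and Arhgef5 at 61.4 and 26.1 TPM (-1.21). Gadd45b had the highest change of the list, and the next was 1.13, in ENSCGRG00015007697.

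Both genes are named in the GO term negative regulation of protein kinase activity, in which 10 of the other 18 genes were lower by 1 or more, 6 were higher and 2 lay between (median -1.12). Gadd45b had the highest and Dusp6 the lowest change of all 20. Pycard was next to Dusp6 there, and Inpp5k next to Gadd45b. Socs5, a suppressor of cytokine signaling, stood at 28.8 and 10.5 TPM (-1.37), Sh3bp5l at 21.6 and 9.54 TPM (-1.10) and Smyd3, a methyltransferase gene, at 8.15 and 19.2 TPM (1.14).

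Gadd45b also belongs to KEGG pathways of growth arrest and stress. In each it had the highest change, which is set in part by its choice for an extreme change. In Cell cycle 6 of the other 7 genes were higher and 1 was lower (median 1.07). In Cellular senescence 9 of the other 16 were higher, 6 lower and 1 between (median 1.06). In FoxO signaling 3 of the other 8 were higher and 5 lower (median -1.47), the lowest being Fbxo32, a ubiquitin ligase gene, from 80.7 to 16.2 TPM (-2.25). In p53 signaling 2 of the other 5 were higher and 3 lower, and the median was -1.33 without Gadd45b against -0.13 with it. Itpr3, a calcium release channel gene of the senescence list, stood at 95.8 and 24.5 TPM (-1.93).

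**Figure D4:**
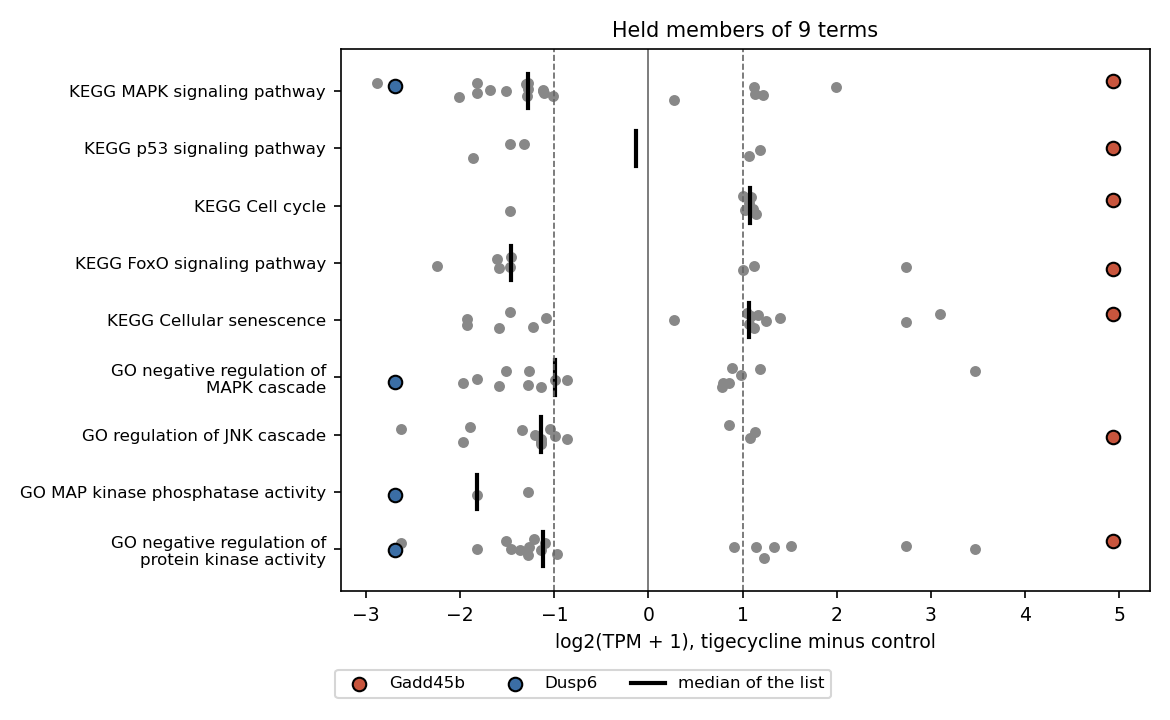
Change on the log2(TPM + 1) scale (horizontal) of the held members of 9 pathway and GO terms, 1 point per gene, with Gadd45b in red, Dusp6 in blue, other genes in grey, a black bar at the median of each list and dashed lines at -1 and 1. Gadd45b lies at 4.93 at the far right of each list that names it, and Dusp6 at -2.69 at or near the far left of its lists. Both genes were chosen for extreme changes, which in part sets these places.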

How the data were processed

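RNA of CHO cells was measured in 1 control and 1 tigecycline library. The authors deposited 1 table of TPM values, rounded to 2 decimals, summing to 999999.90 in the control and 1000000.12 with tigecycline. In the control 13780 of 30211 rows were at 0, and 13763 with tigecycline. The submitters' processing notes name HISAT2 2.1.0, Bowtie2 2.3.5 and RSEM 1.3.1, with no role or order. The genome build is not given in the sources used here. TPM keeps no depth, so no counting error or interval was computed, and the edgeR analysis on read counts was not repeated.

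Change was log2(TPM + 1) with tigecycline minus control. Rows with a mean TPM of at least 1 formed the background. No test was run, since each condition had 1 library. Symbols were known for 376 IDs, 360 from the supplementary annotation (443 rows held) and 16 through RefSeq by NCBI gene number. RefSeq matched 0 Ensembl IDs directly. Term members came from the supplementary enrichment tables. Named were Gadd45b, Dusp6, genes with an ID out of 97 symbols in 7 lists, term members with a symbol, the 3 genes most like each in change and the rows next in rank. Single rows without a symbol were named after their values were seen where they lay at or next to the end of a list or ahead of either gene. So was the remaining member of the phosphatase term, which lies between Dusp6 and Dusp4 in change. The members and lists were chosen with earlier results of these data known. Alternatives were pseudocounts of 0.1 and 5, rescaling to a median log2 ratio of 0 (rows with a mean TPM of at least 10), leaving out the 20 most abundant genes, other windows, Ensembl IDs only, all rows and a threshold of 1.5. The code was tested on simulated data. Python 3.11.15, numpy 2.4.6, pandas 2.3.3 and matplotlib 3.10.9 were used.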

Additional observations from a re-analysis of the deposited data

How the results depend on the processing

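No paired analysis was possible because each condition had 1 library, which also meant that none could be left out. The change of Gadd45b ran from 4.33 (pseudocount of 5) to 5.14 (no pseudocount, added after the values were seen), and that of Dusp6 from -2.98 (no pseudocount) to -1.98 (pseudocount of 5). A pseudocount cannot turn a direction, so these ranges bear on size only. The rank of Gadd45b, number 4 among rows of similar mean TPM, was number 8 in a window of 0.25 to 4 times its mean, number 2 in the narrow one that starts at 0.8 times, and number 1 both with the window set on the control TPM and among rows above 0 TPM in both libraries. The rank of Dusp6, number 31, was number 53 and number 3 in the same wide and narrow windows, number 18 among rows with an Ensembl ID and number 9 among rows above 0 in both libraries. A wider window or more rows at 0 add rows ahead by construction. The 1728 rows past 1 (806 higher and 922 lower) became 831 with a pseudocount of 5 (391 and 440) and 625 at a threshold of 1.5 (302 and 323). All 36 medians of the 9 lists under both pseudocounts, rescaling and removal of the 20 most abundant genes stayed within 1.5 times their value. The unknown depth limits low values most, such as the 3.71 TPM of Dusp6 with tigecycline and the 6.33 TPM of Gadd45b in the control.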
